A study of Homo sapiens with 8 samples.

Results

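The urea cycle genes comprised 9 of the 38032 gene identifiers in the files: the enzymes CPS1, OTC, ASS1, ASL, ARG1, ARG2 and NAGS, and the mitochondrial carriers SLC25A13 and SLC25A15. They were listed by name, not by a measured value, and matched through the GENCODE annotation of GRCh38, and all 9 had counts. HepG2, a human hepatocellular carcinoma line taken here from 1 pool of cells, was kept for 8 days either on flat culture plastic (2D-primed, 4 libraries) or on Alvetex Strata, a porous polystyrene scaffold (3D-primed, 4 libraries), in the same medium with serum and glutamine. Cells of both groups were labelled wild type, received no drug, and were released with trypsin before polyadenylated RNA was sequenced. The 3D cultures were also seeded with more cells per well than the 2D cultures, so that the substrate and the seeding density cannot be told apart. The labels number the replicates but do not say whether they were separate cultures, and p-values therefore measure the spread between these libraries, which may be technical.

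The urea cycle turns ammonia, which is toxic, into urea for excretion, and in the liver it runs mainly in periportal hepatocytes. It starts in mitochondria, where CPS1, switched on by the product of NAGS, makes carbamoyl phosphate and OTC joins it to ornithine to give citrulline. Citrulline leaves for the cytosol through SLC25A15, ASS1 and ASL convert it to arginine with nitrogen from aspartate that SLC25A13 exports, and the cytosolic arginase ARG1 releases urea and returns ornithine. ARG2 is the mitochondrial arginase, which many tissues outside the liver express and which supplies ornithine for proline, glutamate and polyamines. The study also measured urea in the medium of these cultures and reported significantly more on the scaffold than on flat plastic. It describes the cycle as diminished in this line, through deficiency of OTC and ARG1. From its RNA data it reported higher expression of urea cycle genes, ARG1 and OTC among them. The paper proposes that this could explain part of the urea increase, with the cycle likely still deficient beside primary cells. The RNA of each pathway gene was examined here.

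The promoters of ARG1, ARG2 and OTC are shown because these genes had the largest changes of the 9, with the arginases moving in opposite directions. Each sequence runs from 250 to 20 bases before the RefSeq start on the plus strand of GRCh38.p14, and capitals mark matches to any of 7 motifs searched on both strands. The motifs were TGACGTCA (the cyclic AMP response element), TTGCNNAA (C/EBP), CCAAT (the CCAAT box), TATAAA (the TATA box), GGGCGG (the GC box), TGATGCAA (C/EBP-ATF) and CAAAGTCCA (HNF4).
ARG1, chr6:131572976-131573206: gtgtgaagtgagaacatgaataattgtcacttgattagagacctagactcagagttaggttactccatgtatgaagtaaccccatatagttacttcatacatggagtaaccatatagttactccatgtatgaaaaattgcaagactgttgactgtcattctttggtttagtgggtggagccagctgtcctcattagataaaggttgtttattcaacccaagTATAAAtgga
ARG2, chr14:67619670-67619900: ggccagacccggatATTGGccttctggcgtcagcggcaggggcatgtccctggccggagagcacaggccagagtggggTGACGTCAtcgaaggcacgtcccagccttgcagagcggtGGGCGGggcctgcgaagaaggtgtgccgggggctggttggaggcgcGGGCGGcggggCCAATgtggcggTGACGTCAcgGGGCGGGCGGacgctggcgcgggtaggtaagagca
OTC, chrX:38352354-38352584: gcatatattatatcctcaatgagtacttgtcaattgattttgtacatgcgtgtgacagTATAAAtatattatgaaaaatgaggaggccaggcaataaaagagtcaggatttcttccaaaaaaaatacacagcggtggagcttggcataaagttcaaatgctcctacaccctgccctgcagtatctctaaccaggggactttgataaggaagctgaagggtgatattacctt

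The ARG1 window held no CG dinucleotide and 37.2% G and C, and its single match was a TATA box 29 bases before the start. The OTC window held 2 CG dinucleotides and 39.0% G and C, with a TATAAA 192 bases before the start. The ARG2 window held 23 CG dinucleotides and 71.0% G and C, with 2 copies of TGACGTCA, at 172 and 64 bases before the start, 2 CCAAT boxes and 4 GC boxes, the last 2 of which overlap. Over all 34943 RefSeq windows of this kind the median was 9 CG dinucleotides, TGACGTCA was present in 1.42%, TATAAA in 10.4%, CCAAT in 30.8% and GGGCGG in 40.0%. The 3 windows of CPS1, which has several starts, held 1 to 3 CG dinucleotides and none of the motifs. ASS1, ASL, NAGS, SLC25A13 and SLC25A15 had 12 to 31 CG dinucleotides and at least 1 GC box in each window. No window of the 9 genes held TTGCNNAA, TGATGCAA or CAAAGTCCA, which are present in 8.57%, 0.727% and 0.30% of all windows. These matches describe the letters alone, and binding was not measured.

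The deposited values are estimated counts per gene, and they summed to between 21599630 and 25019499 per 2D-primed library and between 22153063 and 27844077 per 3D-primed library. Levels are given as CPM, counts on a common library-size scale after TMM scaling, with mean ± SD, and every log2 fold change sets 3D-primed over 2D-primed cells. A minimum of 10 counts in 2 or more libraries left 13943 genes, of which edgeR's quasi-likelihood test called 63.9% at a Benjamini-Hochberg adjusted p below 0.05. Of the genes tested, 32.4% were called with more RNA after 3D priming and 31.6% with more after 2D priming. OTC passed the filter on low counts only through the 3D-primed libraries, where it was high, so that it is described by its counts and not by that test. The other 8 urea cycle genes would have passed in either group alone, and of these 6 rose in 3D-primed cells, ARG2 fell and CPS1 did not pass the threshold. The median log2 fold change was 0.52 over the 9 genes and 0.48 without OTC, against 0.013 over all genes tested. In bulk RNA, more cells that express a gene and more RNA per cell cannot be told apart.

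**Figure D1:**
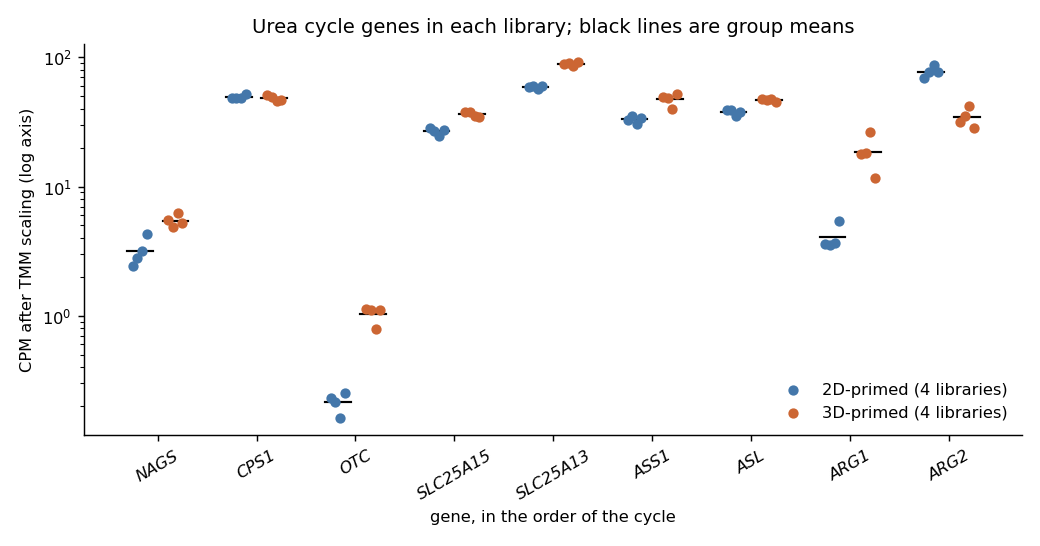
Urea cycle genes on the x axis, in the order of the cycle, against CPM after TMM scaling on a log axis, with 1 point per library and a black line at each group mean. The 3D-primed points lie above the 2D-primed points for 7 genes, below them for ARG2, and among them for CPS1. Groups without overlap were seen in 59.8% of all genes tested. OTC, among the 7, passed the filter on low counts only through the 3D-primed libraries.

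NAGS, which makes the N-acetylglutamate that CPS1 requires, was rare. It lies on chromosome 17, from 44004622 to 44009068 of GRCh38 (ENSG00000161653). The 2D-primed libraries held 53, 65, 78 and 101 counts and the 3D-primed libraries 147, 110, 173 and 131, in the order of their replicate numbers. On the CPM scale the groups did not overlap, although 2D-primed replicate 4, at 4.26 CPM, came near 3D-primed replicate 2, at 4.87 CPM. NAGS rose from 3.17 ± 0.790 to 5.45 ± 0.569 CPM (SD, n = 4), or 1.72-fold (95% interval 1.32 to 2.23, edgeR adjusted p = 0.0022). Groups without overlap were common in these data and were seen in 59.8% of all genes tested.

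CPS1, which fixes free ammonia and is the first committed enzyme of the cycle, was nearly level between the groups. It lies on chromosome 2, from 210477682 to 210679107 (ENSG00000021826), and its longest coding transcript has 5775 bases. It was counted at 48.5, 48.2, 48.2 and 51.7 CPM in the 2D-primed libraries and at 51.2, 49.0, 46.1 and 47.0 CPM in the 3D-primed libraries. The groups overlapped. The log2 fold change was -0.024 (standard error 0.0446, edgeR adjusted p = 0.65), and its 95% interval allowed a change between 0.918-fold and 1.05-fold. Every library held 1059 or more CPS1 counts, the fewest being in 2D-primed replicate 1.

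OTC, the enzyme that forms citrulline, was the least abundant of the 9. It lies on chromosome X, from 38352586 to 38421446 (ENSG00000036473). The 2D-primed libraries held 5, 5, 4 and 6 counts, 20 in all (95% exact Poisson interval 12.2 to 30.9), and the 3D-primed libraries 30, 25, 22 and 28, 105 in all (85.9 to 127). The intervals cover counting error only. In every 3D-primed library OTC was above every 2D-primed one, yet it stayed near 1 CPM, going from 0.215 ± 0.0382 to 1.03 ± 0.164 CPM (SD, n = 4). The fitted log2 fold change was 2.24, or 4.72-fold, given as a description with no test, and its size rests on the 4 to 6 counts of the 2D-primed libraries.

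Both carriers rose. SLC25A15, the ornithine and citrulline exchanger of the inner mitochondrial membrane, lies on chromosome 13, from 40789412 to 40812460 (ENSG00000102743), and went from 26.8 ± 1.53 to 36.2 ± 1.77 CPM (SD, n = 4), or 1.35-fold (edgeR adjusted p = 5.1e-05). Its 2D-primed libraries ran from 24.7 to 28.3 CPM and its 3D-primed libraries from 34.4 to 37.9 CPM, without overlap. SLC25A13, or citrin, which exchanges aspartate for glutamate, lies on chromosome 7, from 96120220 to 96322147 (ENSG00000004864). It was counted at 59.4, 60.3, 56.5 and 59.5 CPM across 2D-primed libraries and at 88.1, 91.1, 86.1 and 92.5 CPM in 3D-primed libraries. Its fold of 1.52 (log2 standard error 0.0388, edgeR adjusted p = 5.5e-07) had the smallest standard error of the 9 genes.

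Each carrier has a close relative that could stand in for it. SLC25A2, the second ornithine carrier, held a single count in the 8 libraries together, so that SLC25A15 accounted for nearly all RNA of this pair. SLC25A12, or aralar, the aspartate and glutamate carrier of muscle and brain, went from 7.74 ± 0.597 to 8.34 ± 0.629 CPM (SD, n = 4) and did not pass the threshold (edgeR adjusted p = 0.29). SLC25A13 made up 88.4 ± 0.781% of the counts of both carriers with 2D priming and 91.5 ± 0.382% with 3D priming (SD, n = 4). This share was 3.08 percentage points higher in 3D-primed cells (two-sided exact permutation test, p = 0.029, adjusted p = 0.043 over the 3 shares tested), and 0.029 is the smallest p that 4 libraries against 4 can give.

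Both cytosolic enzymes of the middle of the cycle rose. ASS1, which joins citrulline to aspartate, lies on chromosome 9, from 130444961 to 130501274 (ENSG00000130707), and was counted at 32.9, 35.4, 30.5 and 33.9 CPM across 2D-primed libraries and at 49.0, 48.7, 40.0 and 52.5 CPM in 3D-primed libraries. All 3D-primed libraries were higher, with replicate 3 nearest to the 2D-primed group, and the fold was 1.43 (95% interval 1.26 to 1.62, edgeR adjusted p = 2.5e-04). ASL, which splits the product into arginine and fumarate, lies on chromosome 7, from 66075800 to 66094697 (ENSG00000126522), and went from 37.8 ± 2.01 to 46.7 ± 0.991 CPM (SD, n = 4), or 1.24-fold (edgeR adjusted p = 1.6e-04). ASL had the smallest rise among the genes called.

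Copies and neighbours of these genes could share reads with them. The 14 annotated ASS1 pseudogenes held 14 counts together over the 8 libraries, against 7932 for ASS1, and the 5 of SLC25A15 held 0. ASLP1 held 12 counts, against 8290 for ASL. ASL also shares 563 exonic bases with ENSG00000249319, a gene on the same strand that held 41 counts. How Salmon divided reads among such copies is not recorded, and the part of these values that this affects was not measured.

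**Figure D2:**
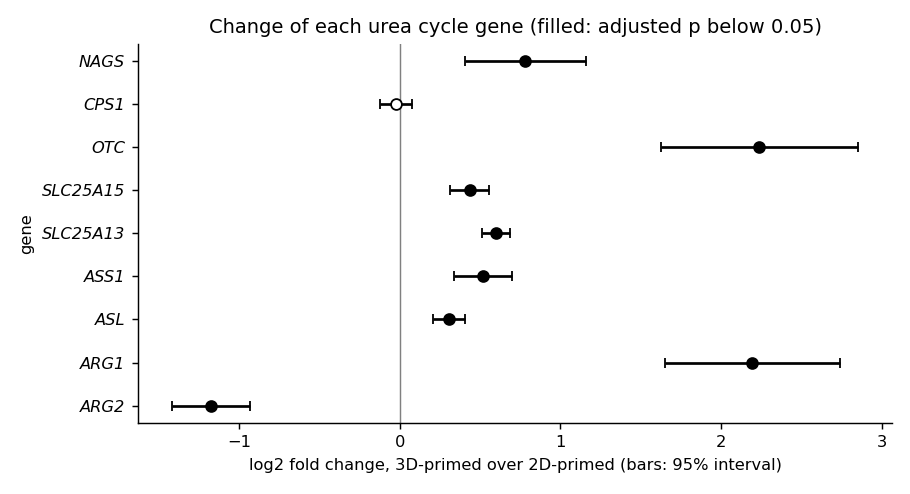
Log2 fold change of each urea cycle gene, 3D-primed over 2D-primed, on the x axis. Bars show the 95% interval and filled points an adjusted p below 0.05. OTC entered through the 3D-primed libraries alone, so its bar and fill are not read as a test. OTC and ARG1 lie at 2.24 and 2.20, ARG2 at -1.17, CPS1 at -0.024, and the other 5 genes between 0.30 and 0.78.

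At the last step of the cycle the arginases moved in opposite directions. ARG1, the cytosolic arginase that is typical of hepatocytes, lies on chromosome 6, from 131470832 to 131584332 (ENSG00000118520). The 2D-primed libraries held 78, 82, 90 and 129 counts, or 3.57, 3.54, 3.66 and 5.44 CPM. The 3D-primed libraries held 471, 414, 744 and 292 counts, or 17.8, 18.3, 26.7 and 11.6 CPM. The lowest 3D-primed library, replicate 4, lay above the highest 2D-primed library, also numbered 4, and among the 9 genes ARG1 had the widest SD relative to its mean in 3D-primed cells. The log2 fold change was 2.20 (standard error 0.245, edgeR adjusted p = 2.3e-05), or 4.58-fold with a 95% interval of 3.14 to 6.68. When single libraries were left out, it ran from 1.96, without 3D-primed replicate 3, to 2.37, without 2D-primed replicate 4.

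ARG2 fell. It lies on chromosome 14, from 67619920 to 67651708 (ENSG00000081181), and was counted at 69.8, 76.9, 87.1 and 76.8 CPM across 2D-primed libraries and at 31.8, 35.1, 42.0 and 28.6 CPM in 3D-primed libraries. Every 2D-primed library was well above every 3D-primed one. The log2 fold change was -1.17 (standard error 0.109, edgeR adjusted p = 6.0e-06), which is 2.26-fold more in 2D-primed cells. Among 3D-primed libraries replicate 3 was the highest and replicate 4 the lowest for both arginases.

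The balance of the arginases was taken within each library, which needs no scaling between libraries. ARG1 made up 4.87, 4.41, 4.04 and 6.62% of all arginase counts in the 2D-primed libraries and 35.8, 34.3, 38.9 and 28.9% in the 3D-primed libraries. ARG2 counts thus exceeded ARG1 counts in all 8 libraries, by 14.1 to 23.8 times in 2D-primed and by 1.57 to 2.47 times in 3D-primed cells. The share rose from 4.98 ± 1.14% to 34.5 ± 4.19% (SD, n = 4; two-sided exact permutation test, p = 0.029, adjusted p = 0.043 over 3 shares), and the ratio of ARG1 to ARG2 counts was 10.2-fold higher in 3D-primed cells. With counts divided by transcript length, the share went from 6.39 ± 1.44% to 40.6 ± 4.50%.

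Summed over both arginases, RNA went from 81.7 ± 7.14 CPM with 2D priming to 53.0 ± 11.8 CPM with 3D priming (SD, n = 4). All 2D-primed sums, from 73.4 to 90.8 CPM, lay above the highest 3D-primed sum of 68.6 CPM. Per kilobase of transcript the sums overlapped, at 39.0 to 48.1 CPM per kilobase in the 2D-primed and 22.9 to 40.1 in the 3D-primed libraries, of which replicate 3 was the highest. No test was made on the sum.

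Both arginase genes overlap genes on the opposite strand. ARG2 shares 904 exonic bases with VTI1B, and ARG1 overlaps MED23 without shared exonic bases. The libraries were made with a directional kit, but whether strand was used in the counting is not given in the sources used here. VTI1B moved by -0.15 log2 units (edgeR adjusted p = 0.0041) and MED23 by -0.076 (edgeR adjusted p = 0.18). The part of antisense reads in the arginase values was not tested.

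**Figure D3:**
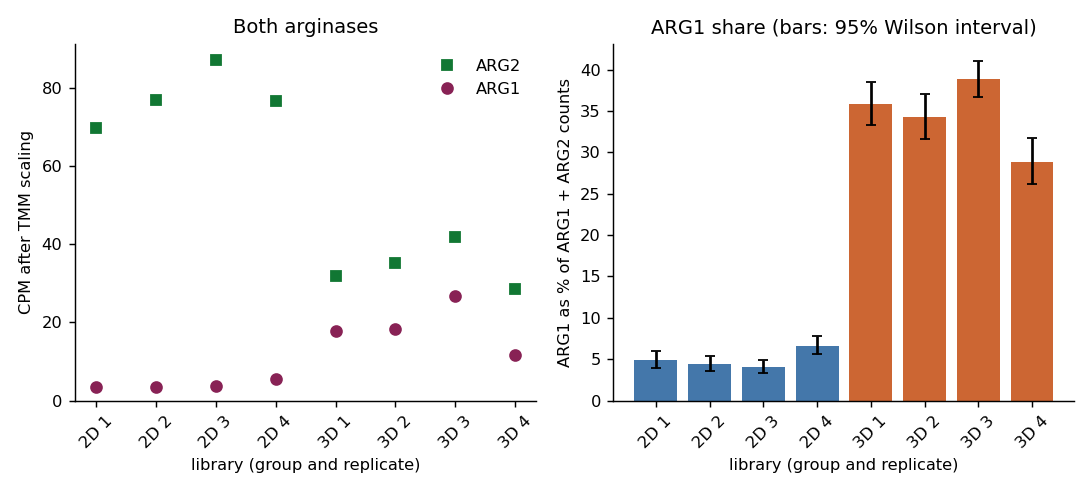
Left, CPM of ARG1 and ARG2 after TMM scaling in each of the 8 libraries on the x axis. Right, ARG1 as a percentage of ARG1 and ARG2 counts in the same libraries, with 95% Wilson intervals that cover counting error only, at 4.04 to 6.62% with 2D priming and 28.9 to 38.9% with 3D priming.

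Levels were compared between genes as CPM per kilobase of the longest coding transcript. In 2D-primed cells ARG2 was the most abundant of the 9 at 40.6 ± 3.72 CPM per kilobase (SD, n = 4), followed by SLC25A13 at 18.5 ± 0.520, ASL at 17.7 ± 0.939 and ASS1 at 16.8 ± 1.05, 3 neighbours whose libraries overlapped. CPS1 at 8.51 ± 0.296, SLC25A15 at 6.76 ± 0.385, ARG1 at 2.76 ± 0.631, NAGS at 1.5 ± 0.374 and OTC at 0.141 ± 0.0251 CPM per kilobase came next, each apart from its neighbours. In 3D-primed cells SLC25A13 led at 28 ± 0.896 CPM per kilobase, apart from ASS1 at 24.1 ± 2.69, and ASS1, ASL at 21.8 ± 0.463, ARG2 at 18 ± 3.00, ARG1 at 12.7 ± 4.22, SLC25A15 at 9.14 ± 0.448 and CPS1 at 8.37 ± 0.392 formed a chain in which each overlapped the next. ARG1 at 12.7 CPM per kilobase thereby stood above CPS1, whereas it had stood below it in 2D-primed cells, and no test was made on this order. In its libraries ARG1 ran from 7.90 to 18.2 and CPS1 from 7.98 to 8.86 CPM per kilobase in 3D-primed cells. OTC remained last in both groups, at 0.680 ± 0.108 CPM per kilobase in 3D-primed cells.

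**Figure D4:**
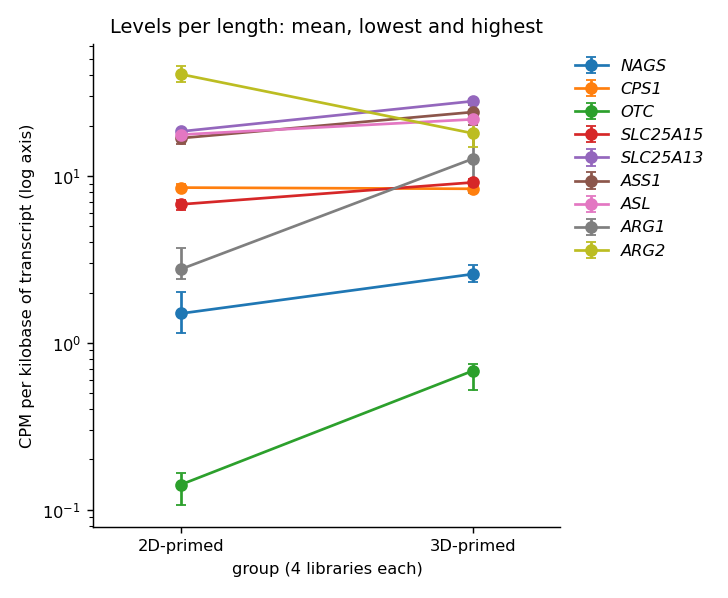
Group means of CPM per kilobase of the longest coding transcript on a log axis for the 9 genes, in 2D-primed and 3D-primed cells, with bars from the lowest to the highest of 4 libraries. ARG2 falls from the first to the fourth place, at 40.6 and 18, and OTC is last in both groups.

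Around the cycle, 7 lists of 78 genes were followed in the same test. Of the 11 tested genes that supply ammonia, glutamate and aspartate, 6 rose, 2 fell and 3 did not pass the threshold, against 63.9% called in all. GLUD1, which releases ammonia from glutamate in mitochondria, rose from 688 ± 55.8 to 912 ± 89.1 CPM (SD, n = 4; log2 fold change 0.41, edgeR adjusted p = 9.0e-04). GLUL, the glutamine synthetase of perivenous hepatocytes, fell by 0.19 log2 units (edgeR adjusted p = 0.0012), as did GPT2, the mitochondrial alanine aminotransferase (adjusted p = 0.0026). GOT2, the mitochondrial aspartate aminotransferase, moved by 0.097 on the log2 scale and did not pass (edgeR adjusted p = 0.055), but it was called with upper-quartile scaling, total counts, the replicate block and without 3D-primed replicate 3, at adjusted p down to 0.0072, which made 7 higher genes in this list.

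CA5A and ASNS were singled out after their values were seen. CA5A, the mitochondrial carbonic anhydrase that supplies bicarbonate to CPS1, was counted at 8.43, 8.86, 6.47 and 9.58 CPM across 2D-primed libraries and at 21.0, 21.6, 18.3 and 23.0 CPM in 3D-primed libraries, without overlap. It rose 2.52-fold (log2 standard error 0.115, edgeR adjusted p = 3.8e-06). ASNS, which spends aspartate and glutamine on asparagine, rose from 14.1 ± 0.370 to 132 ± 6.33 CPM (SD, n = 4), or 9.35-fold (edgeR adjusted p = 1.8e-10).

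Fumarate from ASL returns to aspartate through fumarase and malate dehydrogenase. Of the 6 genes listed for this route, 4 rose and 2 did not pass, against 63.9% of all genes tested called. Only 2 were called higher without 2D-primed replicate 3 or 3D-primed replicate 1 or 2, where MDH1 and SLC25A11 lost their calls. FH, fumarase, went from 44.2 ± 0.742 to 68.7 ± 4.22 CPM (SD, n = 4; log2 fold change 0.64, edgeR adjusted p = 1.4e-06). The citrate carrier SLC25A1 rose by 0.50 log2 units (edgeR adjusted p = 1.7e-05). MDH1, the cytosolic malate dehydrogenase, had 0.16 (adjusted p = 0.023, up to 0.065 over the alternatives) and its mitochondrial counterpart MDH2 0.0083 (adjusted p = 0.90).

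Ornithine also leaves the cycle toward proline and polyamines, and of 15 tested genes of this branch 8 rose, 6 fell and 1 did not pass. Over all genes tested, 32.4% were called higher and 31.6% lower after 3D priming. SAT1, which acetylates polyamines, had the largest change among the 4 most abundant genes of the branch and fell from 394 ± 27.6 to 158 ± 21.9 CPM (SD, n = 4; log2 fold change -1.31, edgeR adjusted p = 9.7e-07). ALDH18A1, which makes the precursor of proline and ornithine from glutamate, fell by 0.35 log2 units (adjusted p = 5.8e-04), and ALDH4A1, an enzyme of proline breakdown, fell by 0.31 (adjusted p = 7.9e-04). PYCR1, which completes proline synthesis in mitochondria, rose by 0.36 log2 units (edgeR adjusted p = 2.1e-04).

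Of 8 tested genes listed for arginine use outside the cycle, 6 rose, 1 fell and 1 did not pass, against 63.9% of all genes tested called. The rise of AZIN2 was not called in DESeq2 or without 2D-primed replicate 2 or 3 or 3D-primed replicate 1 or 4 (adjusted p up to 0.064, against 0.022 in edgeR with all libraries), which left 5 higher genes. The creatine enzyme GAMT rose from 35.7 ± 4.49 to 73.7 ± 4.84 CPM (SD, n = 4; log2 fold change 1.05, edgeR adjusted p = 2.6e-06). AGMAT, named for the hydrolysis of agmatine, had a log2 fold change of 0.78, the dimethylarginine hydrolase DDAH1 of 0.45 and the arginine methyltransferase PRMT1 of 0.23, all with adjusted p of 3.7e-04 or below in edgeR. The gene that fell was GATM, the first enzyme of creatine synthesis, at -0.48 (edgeR adjusted p = 0.0073), named after its value was seen.

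Among 11 tested transporters related to the cycle, 6 rose, 1 fell and 4 did not pass, against 63.9% of all genes tested called. The cationic amino acid transporter SLC7A2, which carries arginine into hepatocytes, rose from 254 ± 14.9 to 326 ± 30.8 CPM (SD, n = 4; log2 fold change 0.36, edgeR adjusted p = 9.9e-04), and SLC7A1, of the same family, rose by 0.49 log2 units (adjusted p = 2.8e-06). SLC3A2, the heavy chain of several amino acid exchangers, rose by 0.42 (adjusted p = 2.4e-06) and its partner SLC7A6 fell by 0.43 (edgeR adjusted p = 8.1e-06). The urea transporter SLC14A1 held no count in any library, which allows up to 3 counts per library, and SLC14A2 held 1 to 11 counts. CAD, which makes carbamoyl phosphate in the cytosol for pyrimidines, did not pass (log2 fold change -0.086, edgeR adjusted p = 0.11), whereas UMPS, which ends that route, rose by 0.24 (adjusted p = 2.6e-04). DHODH, between them, was at the threshold, with a difference of 0.22 log2 units (edgeR adjusted p = 0.049) that 12 of 17 alternatives did not call.

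Of 12 tested regulators known to act on urea cycle genes or proteins, 6 rose, 3 fell and 3 did not pass. Over all genes tested, 63.9% were called. CEBPB rose from 60.1 ± 2.08 to 145 ± 5.90 CPM and CEBPA from 76.6 ± 8.33 to 162 ± 9.68 CPM (SD, n = 4), both transcription factors of the C/EBP family with known roles in hepatocyte metabolism. Their log2 fold changes were 1.27 and 1.09 (edgeR adjusted p = 2.0e-08 and 8.9e-07). The nuclear receptor PPARA fell by 0.58 (adjusted p = 9.1e-06). HNF4A rose by 0.27 log2 units (edgeR adjusted p = 1.9e-04).

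**Figure D5:**
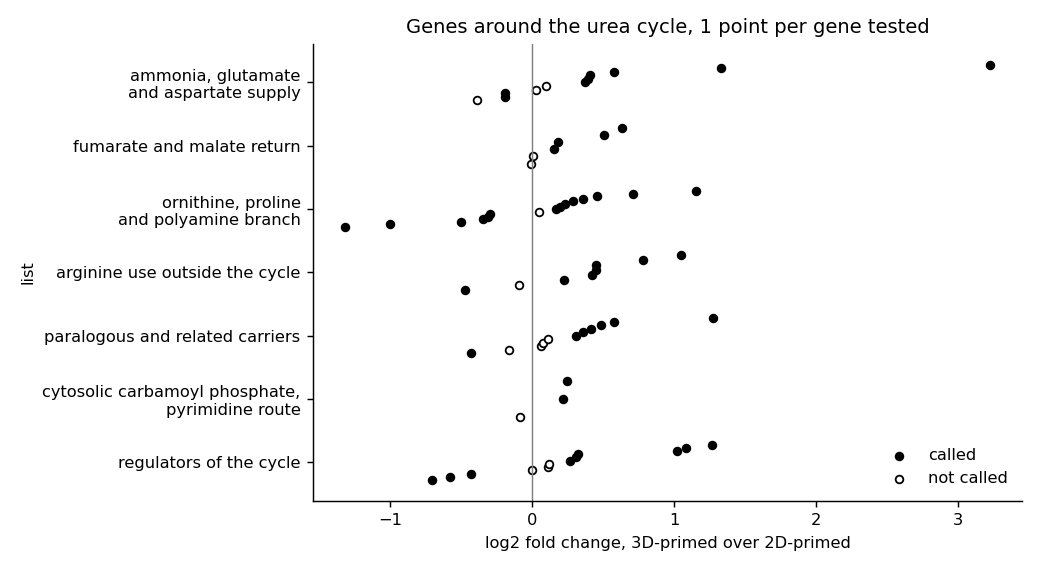
Log2 fold change, 3D-primed over 2D-primed, on the x axis for each tested gene of the 7 lists around the urea cycle, filled where the adjusted p was below 0.05. The point farthest to the right is ASNS, at 3.22, and the farthest to the left is SAT1, at -1.31.

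The label of hepatocyte-derived cells was checked with 10 marker genes. Their sum ran from 79771 to 86193 CPM per 2D-primed library and 109739 to 122203 CPM in 3D-primed libraries, led by ALB. It includes AFP, which went from 8679 ± 376 to 18752 ± 553 CPM (SD, n = 4) and was named after its values were seen. The sum was not taken as a measure of hepatocyte maturity. 7 of the 10 rose and 2 fell, APOB and SERPINA1, while AHSG did not pass, against 63.9% of all genes tested called. The call of SERPINA1 was lost with no filter on low counts and with the replicate block (edgeR adjusted p up to 0.13), and AHSG was called with upper-quartile scaling, total counts and without 3D-primed replicate 4 (edgeR adjusted p down to 0.0057). Of 5 periportal genes tested, HAL, the histidine ammonia-lyase, rose 8.69-fold (edgeR adjusted p = 2.7e-07), GLS2 rose, PCK1 fell by 0.81 log2 units (adjusted p = 2.8e-04), and G6PC1 and CPS1 did not pass, although G6PC1 was called higher without 3D-primed replicate 4 (adjusted p = 0.024). HAL was singled out after its values were seen, at 98.7, 109, 140 and 77.8 CPM in 3D-primed libraries, where replicate 3 was again the highest and replicate 4 the lowest. SDS, also a periportal gene, held no count. The perivenous list was mixed. OAT and RHBG rose, and GLUL, LGR5 and AXIN2 fell. CYP2E1 held 6, 76, 7 and 8 counts in the 2D-primed and 28, 31, 12 and 7 in the 3D-primed libraries. It passed the filter on low counts only through the latter, so no test is given. With a library left out, its log2 fold change ran from -0.82 to 1.36. CYP1A2, at 4 to 9 counts per 2D-primed and 13 to 31 per 3D-primed library, passed the filter only through the group where it was high, so no test is given.

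Markers of other cells were followed in the same way, beside the 63.9% of all genes tested that were called. Of 5 bile duct markers, KRT19, SOX9 and EPCAM fell and KRT7 and CFTR held at most 2 counts per library, and the list summed to 737 to 828 CPM per 2D-primed library and 418 to 446 CPM in 3D-primed libraries, with SOX9 the most abundant. Of 5 macrophage markers, which summed to 71.9 to 74.4 CPM per 2D-primed and 29.8 to 39.4 CPM per 3D-primed library, CD163 and MARCO were at 0 in all libraries and PTPRC and CSF1R at 2 counts or fewer, while CD68, a lysosomal protein, made up nearly all of the list and fell by 1.08 log2 units (edgeR adjusted p = 6.3e-07). The endothelial markers KDR and TEK held at most 2 counts and the 5 genes listed summed to 4.16 to 7.76 CPM over all libraries, led by CDH5, which fell by 1.56 log2 units (edgeR adjusted p = 2.7e-05). In the same list VWF rose by 0.62 log2 units (edgeR adjusted p = 0.030, up to 0.085 over the alternatives), and PECAM1, at 0.46, did not pass (edgeR adjusted p = 0.12) except without 2D-primed replicate 1 (adjusted p = 0.048). Of 7 fibroblast markers COL1A2, COL3A1, DCN and LUM held at most 2 counts, and ACTA2, which was called, as lower, only without 3D-primed replicate 4 (adjusted p = 0.016), led the list, which summed to 40.5 to 48.7 CPM over all libraries. COL1A1 held 23, 28, 23 and 16 counts in the 2D-primed and 3, 2, 0 and 2 in the 3D-primed libraries, and passed the filter on low counts only through the former, so no test is given. PDGFRB rose by 0.62 log2 units (edgeR adjusted p = 1.8e-05). Of 4 genes of dividing cells, MKI67 and TOP2A fell, PCNA rose and CCNB1 did not pass (edgeR adjusted p = 0.16, down to 0.037 over the alternatives), and their sum ran from 685 to 742 CPM per 2D-primed library and 582 to 653 CPM in 3D-primed libraries. The part of cell division and of the bile duct genes in the changes of the urea cycle genes was not tested.

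The genes whose log2 CPM followed a urea cycle gene most closely over the 8 libraries were sought among 8678 protein-coding genes of at least 10 CPM, for the 3 members with the highest CPM. For SLC25A13 they were DNAJC7, SLC43A1 and EYA3, with Pearson correlations of 0.999, 0.999 and 0.998. For ARG2 they were RTN4RL2, IFITM2 and ACBD5, each at 0.998 or 0.999. For CPS1 they were PSENEN at 0.948, COX5B at 0.933 and HAUS4 at 0.882. The first 6 correlations largely restate the gap between the groups, since the points fall into 2 clusters, and all values share the library totals. All, those of CPS1 included, were picked as the highest of 8678 candidates over only 8 libraries. How high chance alone would reach was not tested.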

How the data were processed

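Polyadenylated RNA in 8 HepG2 libraries was measured by paired-end sequencing. The authors deposited 1 table of estimated counts per gene for each library, made with Salmon on the Ensembl cDNA set of GRCh38 and summed with tximport. The values are whole and unscaled, and whether tximport corrected them for transcript length is not given in the sources used here. Symbols, positions and transcript lengths came from GENCODE v44 by identifier without version (34977 of 38032 matched), and promoter sequences from RefSeq, GRCh38.p14.

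A minimum of 10 counts in 2 or more libraries was required, and the genes kept were scaled by TMM and tested with glmQLFit and glmQLFTest of edgeR 4.0.16 in R 4.3.3, with p adjusted over all genes tested. Standard errors are the log2 fold change over the square root of F. Paralog shares were compared by exact permutation in Python 3.11.15, with p adjusted over 3 shares, 1 of which is not reported here. DESeq2 1.42.0, limma-voom of limma 3.58.1, other scalings and filters, each library left out and the replicate number as a block were alternatives. Beside the 9 members, the 4 most abundant tested genes of each list were named. Genes named outside this rule, among them CA5A, ASNS, GATM, SLC25A2, SLC14A1, SLC14A2, AZIN2, SLC25A11, CYP1A2, COL1A1, PDGFRB, CDH5, VWF and HAL, were chosen after their values were seen. The members and lists were chosen with earlier results of these data known. Libraries of 1 group differed by a chi-square of 6.07 to 16.4 per degree of freedom, beyond counting noise. The pipeline was tested on simulated data in which far fewer genes changed than were called here. Its error rates with most genes changing were not tested.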

Additional observations from a re-analysis of the deposited data

Results flagged for a closer look

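In groups of 4 libraries, a single library stood apart from the other 3 in 6 of the 76 groups of values examined, where chance gives about 1 in 20. For CPS1, 2D-primed replicate 4 had 51.7 CPM against 48.2 to 48.5 CPM in the others. The same library had 5.44 CPM of ARG1, against 3.54 to 3.66 CPM. For OTC, 3D-primed replicate 3 had 0.789 CPM, or 22 counts, against 1.11 to 1.13 CPM. Among genes around the cycle, 2D-primed replicate 1 was low for GPT2 at 424 CPM, against 450 to 454 CPM. 2D-primed replicate 2 was high for PYCR1 at 231 CPM, against 209 to 213 CPM. 3D-primed replicate 2 was low for PPARA at 75.8 CPM, against 85.5 to 86.9 CPM.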

How the results depend on the processing

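Of the 8 urea cycle genes that passed the filter in either group alone, the 6 called higher and the 1 called lower in 3D-primed cells kept their direction and their call with 17 other settings across genes. OTC, which did not, could not be fitted with 10 counts required in all 8 libraries. The CPS1 log2 fold change altered its sign without reaching the threshold, at 0.026 with upper-quartile scaling, 0.0036 with total counts, and from -0.059 to 0.00050 with a library left out. Same-numbered libraries deviated together with correlations of -0.043 to 0.057, so the numbers were not taken to pair them. With the replicate block, the ARG1 log2 fold change was 2.15 (edgeR adjusted p = 3.1e-04), and the count of differentially expressed genes was 8490 in place of 8916. The exact sign-flip test over 4 pairs in the replicate block cannot go below 0.125, the value it gave for the ARG1 share (29.5 percentage points) and the SLC25A13 share (3.08). The MDH2 log2 fold change turned to -0.0018 in DESeq2 and with RLE scaling, and ran from -0.050 to 0.043 with a library left out. The fumarate list gave 2 to 4 higher genes with a library left out, and MDH1 and SLC25A11 lost their calls without 2D-primed replicate 3 or 3D-primed replicate 1 or 2. The pyrimidine list gave 1 higher gene in DESeq2, limma-voom, RLE scaling, no filter, filterByExpr, 10 counts in all 8 libraries and the replicate block, 1 to 2 with a library left out, and 0 to 1 lower genes, the 1 being CAD without 3D-primed replicate 3. Of all 97 other genes tested from the lists and markers, 17 fell on the other side of the threshold in at least 1 setting. Among the urea cycle genes OTC held the fewest counts, and its fold is limited by the 4 to 6 counts of the 2D-primed libraries.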
